A study of Homo sapiens with 12 samples.

Results

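Sterol regulatory element-binding proteins (SREBPs) are released from membranes by a small set of proteins, and the 7 genes described here encode that set: the precursors SREBF1 and SREBF2, the escort protein SCAP, the retention proteins INSIG1 and INSIG2, and the proteases MBTPS1 and MBTPS2. The genes were listed by symbol with earlier results of these data known. The study had already reported INSIG1 as strongly raised by the treatment in both cell lines. All 7 genes were found by Ensembl identifier among the 58735 genes of the deposited count table. They are described over 12 RNA libraries in 4 groups of 3. HEC-1A (written HEC1A in the labels) is a human endometrial cell line of epithelial origin, derived from a carcinoma, and T-HESC is an immortalised human endometrial stromal line of fibroblastic origin, so each line stands for a single established culture and not for a tissue. In each line, 1 group was cultured with 15 µM AG-205 and the other with its solvent DMSO, both for 32 h. AG-205 is a small molecule used as a ligand of the haem-binding protein PGRMC1, but the study concluded that it is not specific for PGRMC1. AG-205 was given at 1 dose and 1 time, and no untreated or sterol-depleted culture belongs to the groups.

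SREBPs are made as inactive precursors held in the membrane of the endoplasmic reticulum. SCAP binds them there and, when sterols are scarce, escorts them to the Golgi apparatus, where site-1 protease (MBTPS1) and then site-2 protease (MBTPS2) cut the precursor and set free the part that enters the nucleus. When sterols are plentiful, INSIG1 and INSIG2 hold the SCAP and SREBP complex back. SREBP-2, the product of SREBF2, mainly drives genes of cholesterol synthesis, SREBP-1, the product of SREBF1, mainly those of fatty acid synthesis, and INSIG1 and SREBF2 are themselves known targets of SREBPs. The counts measured RNA, so neither cleavage of the precursors nor any protein level is part of the data.

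Total counts ranged from 7168542 to 15178276 per library, and the members had 145 to 15828 counts per library, so none was near the limit of detection. Levels are given as CPM, counts per 1000000 counts of the library total after TMM scaling over all 12 libraries. All 8 epithelial markers were at or above 1 CPM in every HEC-1A library, and all 8 stromal markers in every T-HESC library. In T-HESC, CDH1, EPCAM and ESRP1 stayed below 1 CPM, but 4 epithelial markers reached 1 CPM in every library of each group. The epithelial markers there summed to 238 to 344 CPM with DMSO and 222 to 389 CPM with AG-205. In HEC-1A, 3 stromal markers reached 1 CPM in every library of each group. The summed epithelial markers of HEC-1A were 1525 to 1686 CPM with DMSO and 2290 to 2327 CPM with AG-205, and their part in the results was not tested. T-HESC AG-205 replicate 1 stood apart: on the first principal component of its line, with 51.6% of the variance, it scored 89.3 and the other T-HESC libraries -37.9 to 2.77. The AG-205 effects, the line differences and the changes of ratios were therefore also computed without it. The libraries also differed in how their levels ran with GC content, with Spearman rho across genes from -0.41 to 0.58 against the other libraries of the group, and with transcript length, from -0.50 to 0.44. Per the methods of the study, the RNA came from 3 independent culture experiments. The labels do not say which cultures were grown together, and p-values measure the spread between these libraries.

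With AG-205, INSIG1 was about 9 times its DMSO level in both lines. SREBF2 rose 1.80-fold and INSIG2 1.50-fold in HEC-1A, while in T-HESC SREBF2 was higher in AG-205 libraries 2 and 3 but not in library 1, and INSIG2 overlapped its controls. SREBF1, SCAP, MBTPS1 and MBTPS2 passed the test in neither line. Within each line the treatments were compared with edgeR's quasi-likelihood test, with p-values adjusted by Benjamini-Hochberg over all genes tested. A call needed an adjusted p under 0.05 together with a log2 fold change of more than 1 in either direction. By that rule 1 of 7 members was higher in HEC-1A, INSIG1, against 2.58% of the 14122 genes tested there. Without the fold limit 3 members were higher in HEC-1A, against 7.35% of the genes. In T-HESC 1 of 7 was called, again INSIG1, against 0.0800% of the 13753 genes tested. All AG-205 libraries lay above all DMSO libraries for 3 members in HEC-1A, INSIG1, INSIG2 and SREBF2, where 16.4% of genes did so. They lay below for MBTPS1, as for 15.0% of genes. In T-HESC they lay above for INSIG1, as for 6.23% of genes, and below for 0 members, as for 4.81% of genes.

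**Figure D1:**
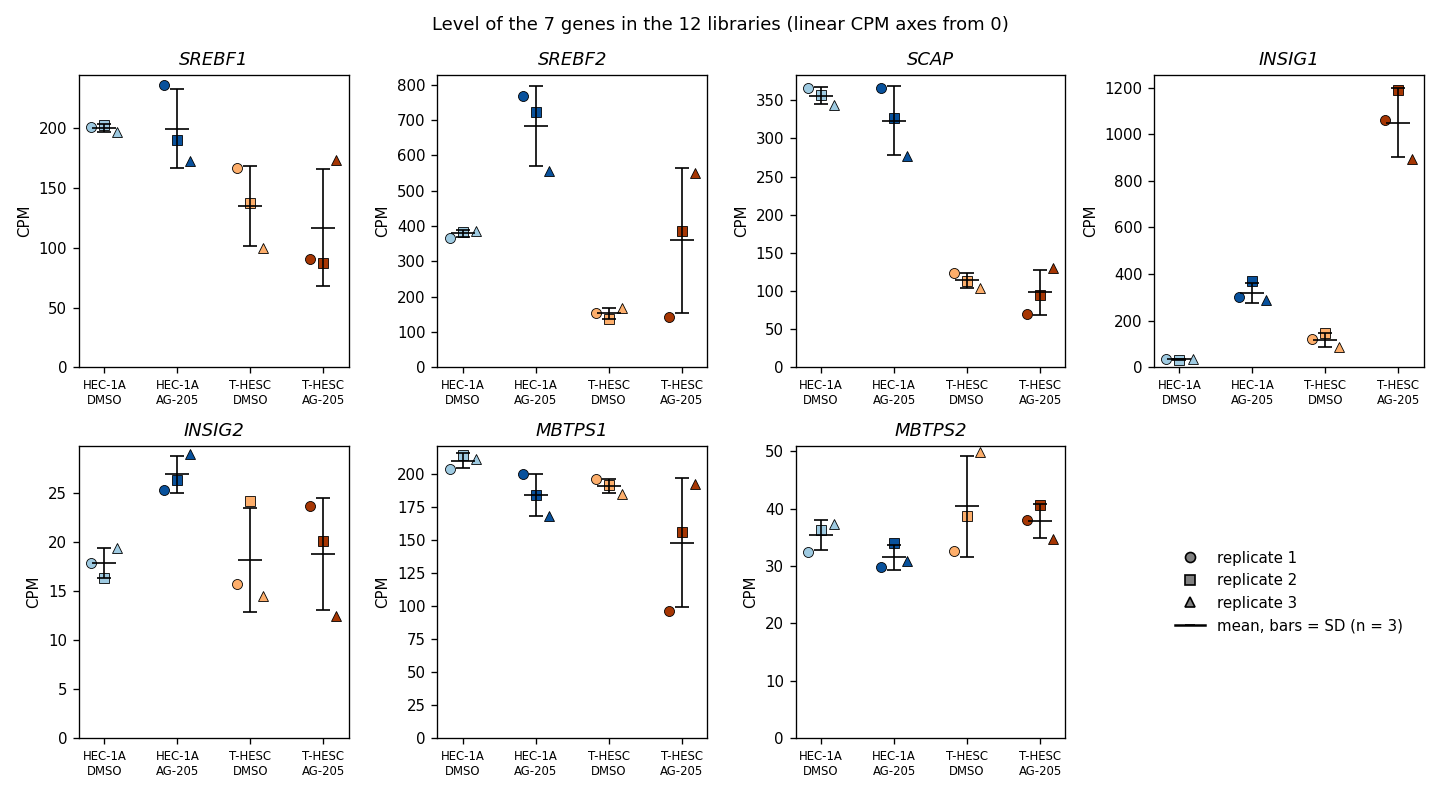
CPM of each member (vertical axis, linear from 0) in the 4 groups of cell line and treatment (horizontal axis). Circles, squares and triangles are replicates 1, 2 and 3, whose numbers were not taken as pairs between groups, and bars are the mean and SD of 3 libraries. INSIG1 lies above its DMSO libraries in every AG-205 library of both lines, whereas SREBF2 in T-HESC has 1 AG-205 library, at 143 CPM, among its controls at 138 to 167 CPM.

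SREBF1 (ENSG00000072310) spans bases 17810399 to 17837002 of chromosome 17 (GRCh38, minus strand) and codes for the SREBP-1 precursors. In HEC-1A it was at 201, 203 and 197 CPM with DMSO and at 236, 191 and 172 CPM with AG-205. The treated libraries lay on both sides of the controls. The log2 fold change was -0.00 ± 0.11 (SE, edgeR's quasi-likelihood test, adjusted p = 0.996), with an approximate 95% interval of -0.22 to 0.22. Intervals given here use the SE and the normal distribution, so they are narrower than the quasi-likelihood test implies. In T-HESC its level was 167, 138 and 99.9 CPM with DMSO and 90.5, 86.9 and 173 CPM with AG-205. Here 2 treated libraries were below every control and the third was above every control. The log2 fold change of -0.22 ± 0.34 was not past the test (edgeR's quasi-likelihood test, adjusted p = 0.993). Its 3′ end overlaps that of RAI1 on the opposite strand, over 6.75% of the exon bases of SREBF1. RAI1 was at 27.5 CPM in T-HESC AG-205 replicate 1 and at 96.4 to 149 CPM in the other libraries of that line, and since the strand setting of the counting was not given in the sources used here, reads of the shared stretch cannot be told apart.

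SREBF2 (ENSG00000198911) spans bases 41833105 to 41907306 of chromosome 22 (GRCh38, plus strand) and codes for the SREBP-2 precursor. Of the 7 windows of 250 bases before the members' RefSeq start sites, that of SREBF2 was the only one to hold TCACNCCAC, the core of a sterol regulatory element read on both strands. Of 27305 windows of the same length, 0.875% hold it. The window is shown because SREBF2 was the precursor gene that moved with AG-205. It is chr22:41832855-41833104 on the plus strand of GRCh38.p14 (RefSeq), written 5′ to 3′, with the core, 133 to 125 bases before the start, and a CCAAT box read on the minus strand in capitals.
SREBF2: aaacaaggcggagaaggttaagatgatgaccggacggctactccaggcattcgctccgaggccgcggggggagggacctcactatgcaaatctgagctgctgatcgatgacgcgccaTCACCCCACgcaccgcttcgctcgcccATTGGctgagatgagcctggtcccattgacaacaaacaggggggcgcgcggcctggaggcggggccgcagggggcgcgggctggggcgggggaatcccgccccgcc
A match of these letters is a description of the sequence, and binding was not measured.

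In HEC-1A, SREBF2 was at 367, 383 and 387 CPM with DMSO and at 770, 724 and 557 CPM with AG-205. The groups did not overlap, and the lowest treated library was the one with the smallest total count. SREBF2 rose by 0.85 ± 0.12 on the log2 scale (SE; edgeR's quasi-likelihood test, adjusted p = 0.000549), which is under the fold limit of a call. The T-HESC libraries were at 154, 138 and 167 CPM with DMSO and at 143, 387 and 549 CPM with AG-205. Libraries 2 and 3 were at 2.53 and 3.59 times the mean of the controls, and library 1 was at 0.933 times that mean, inside the range of the controls. The log2 fold change was 1.21 ± 0.44 and was not past the test (edgeR's quasi-likelihood test, adjusted p = 0.703). Without AG-205 replicate 1 it was 1.59 ± 0.21 (edgeR's quasi-likelihood test, adjusted p = 0.0217). Correcting each library for GC content and length, a choice made after seeing the data, left the log2 fold change at 1.22 with a smaller SE of 0.24, still not past the test (adjusted p = 0.141). Library quality weights in limma, which gave replicate 1 a weight of 0.159, put it past the test at 1.39 (adjusted p = 0.00909), as did edgeR without a filter on low counts at 1.22 (adjusted p = 0.0431).

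SREBF2-AS1, a long noncoding RNA on the opposite strand at the start of SREBF2, overlaps 9.08% of its exon bases. It was at 6.53 to 7.32 CPM with DMSO and at 8.50 to 12.5 CPM with AG-205 in HEC-1A, with a log2 fold change of 0.66 ± 0.16 (edgeR's quasi-likelihood test, adjusted p = 0.0201) that missed the test without any 1 library other than AG-205 replicate 3. At these levels it held far fewer reads than SREBF2, and reads of the shared stretch cannot be assigned to a strand. The microRNAs MIR33A and MIR33B, which lie in introns of SREBF2 and SREBF1, had 1 and 0 counts over all 12 libraries, which the selection of polyadenylated RNA limits.

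SCAP (ENSG00000114650), at bases 47413681 to 47477126 of chromosome 3 (minus strand), codes for the sterol-sensing escort. In HEC-1A it was at 366, 356 and 344 CPM with DMSO and at 366, 327 and 277 CPM with AG-205. The highest values of the groups coincided, and the log2 fold change was -0.14 ± 0.11 (edgeR's quasi-likelihood test, adjusted p = 0.456). T-HESC libraries held 124, 114 and 104 CPM with DMSO and 70.4, 95.0 and 130 CPM with AG-205. The treated libraries spread from below to above the controls, with a log2 fold change of -0.23 ± 0.26 (adjusted p = 0.993, same test). With the GC content and length correction the HEC-1A value was -0.23 ± 0.07 and passed (adjusted p = 0.0205). Under that correction 2128 of 14122 genes passed lower in HEC-1A, against 605 without it. SCAP transcripts have 61.7% GC, at the 90th percentile of the tested genes.

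INSIG1 (ENSG00000186480), at bases 155297776 to 155310235 of chromosome 7 (plus strand), codes for the retention protein whose gene is itself induced by SREBPs. In HEC-1A it was at 34.5, 32.6 and 35.8 CPM with DMSO and at 304, 369 and 288 CPM with AG-205. The groups were far apart, and the log2 fold change was 3.22 ± 0.12, a 9.35-fold rise (edgeR's quasi-likelihood test, adjusted p = 4.11e-09). In the stromal line INSIG1 was at 122, 147 and 85.6 CPM with DMSO and at 1059, 1191 and 896 CPM with AG-205. Each treated library was 7.59 to 10.1 times the mean of the controls, the library that stood apart included, at 8.97 times. INSIG1 thus rose in T-HESC by a log2 of 3.13 ± 0.30, or 8.78-fold (edgeR's quasi-likelihood test, adjusted p = 0.0260). The size held when single T-HESC libraries were left out, from 2.94 to 3.33, but the adjusted p did not. Leaving out DMSO replicates 1, 2 and 3 in turn gave 0.417, 0.315 and 0.317, and leaving out AG-205 replicates 1, 2 and 3 gave 0.00491, 0.133 and 0.0481. DESeq2 on all T-HESC libraries gave 3.14 with an adjusted p of 5.08e-22. On simulated T-HESC counts DESeq2, run without the low-count filter on 27582 genes, made 24 false calls. There edgeR, run with the filter on 13795 genes, made 3, so tool and filter cannot be told apart. False calls by DESeq2 and edgeR were 0 and 1 for HEC-1A and 8 and 1 for the difference of effects. For the line difference they were 8 and 11 with DMSO and 15 and 15 with AG-205.

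The 250 bases before the RefSeq start of INSIG1 held an E-box (CACGTG), as 6.49% of all windows do, and a CCAAT box, as 33.0% do, but no TCACNCCAC. They are shown because INSIG1 had the largest change of the 7 members in both lines. The first stretch is chr7:155297628-155297775 on the plus strand of GRCh38.p14, with the CCAAT box, read on the minus strand, in capitals, and it ends where the Ensembl gene begins. The second, with the E-box in capitals, is chr7:155297811-155297840 on the same strand, inside the longer Ensembl gene model, and its E-box lies 55 to 50 bases before the RefSeq start.
INSIG1 window: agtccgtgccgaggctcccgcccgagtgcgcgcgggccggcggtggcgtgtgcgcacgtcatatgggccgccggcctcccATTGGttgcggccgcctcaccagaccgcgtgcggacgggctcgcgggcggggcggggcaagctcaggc
INSIG1 E-box: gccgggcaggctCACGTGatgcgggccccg
Among the other members SCAP also had an E-box in its window. GGGCGG, an Sp1 box, stood 5 times before INSIG1 on either strand, 3 times before SREBF1 and SCAP, 2 times before SREBF2, 1 time before INSIG2 and not in the windows of MBTPS1 and MBTPS2, where 42.3% of all windows hold it.

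INSIG2 (ENSG00000125629), at bases 118088452 to 118110997 of chromosome 2 (plus strand), codes for the second retention protein. It was among the least abundant members. In HEC-1A it was at 17.8, 16.3 and 19.4 CPM with DMSO and at 25.3, 26.3 and 29.0 CPM with AG-205. The groups did not overlap, and INSIG2 rose by 0.59 ± 0.12 on the log2 scale, or 1.50-fold (edgeR's quasi-likelihood test, adjusted p = 0.00654). Without DMSO replicate 2 the value was 0.53 and just missed the test (adjusted p = 0.0530). Its T-HESC levels were 15.7, 24.2 and 14.5 CPM with DMSO and 23.7, 20.1 and 12.5 CPM with AG-205. Of the treated libraries, 2 lay inside the range of the controls and 1 below it. The log2 fold change was 0.04 ± 0.33 (edgeR's quasi-likelihood test, adjusted p = 0.993). Its approximate 95% interval, from the SE and the normal distribution, was -0.62 to 0.69, a range that includes the HEC-1A value. In a fit of all 12 libraries, which shares the wider T-HESC spread, neither SREBF2 (adjusted p = 0.514) nor INSIG2 (adjusted p = 0.525) passed in HEC-1A.

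MBTPS1 (ENSG00000140943), at bases 84053761 to 84116942 of chromosome 16 (minus strand), codes for site-1 protease. In HEC-1A it was at 204, 214 and 211 CPM with DMSO and at 200, 184 and 168 CPM with AG-205. All treated libraries were below the controls by a small margin, and the log2 fold change was -0.19 ± 0.09 (edgeR's quasi-likelihood test, adjusted p = 0.219). With the GC content and length correction it was -0.21 ± 0.06 and passed (adjusted p = 0.0280), as 2128 of 14122 genes passed lower there. In T-HESC it was at 196, 191 and 185 CPM with DMSO and at 96.0, 156 and 192 CPM with AG-205, so that the library that stood apart was at 0.504 times the control mean and library 3 was among the controls. The log2 fold change there was -0.38 ± 0.28 (edgeR's quasi-likelihood test, adjusted p = 0.993).

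MBTPS2 (ENSG00000012174), at bases 21839617 to 21885423 of chromosome X (plus strand), codes for site-2 protease. In HEC-1A it was at 32.5, 36.3 and 37.4 CPM with DMSO and at 29.8, 33.9 and 30.8 CPM with AG-205. The groups overlapped, with a log2 fold change of -0.17 ± 0.10 (edgeR's quasi-likelihood test, adjusted p = 0.348). In T-HESC it was at 32.5, 38.8 and 49.9 CPM with DMSO and at 38.0, 40.6 and 34.7 CPM with AG-205, every treated library within the range of the controls (log2 fold change -0.11 ± 0.23, adjusted p = 0.993 in edgeR's quasi-likelihood test). YY2, which lies within MBTPS2 on the same strand, shares 12.2% of the annotated exon bases of MBTPS2, and it held 4 to 57 counts per library.

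**Figure D2:**
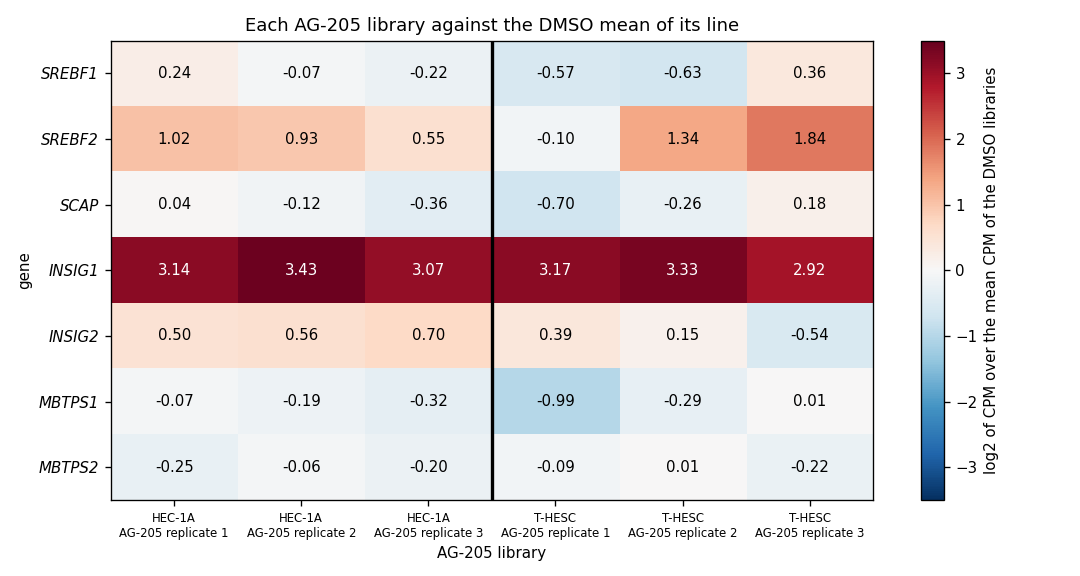
Log2 of the CPM of each member (rows) in each AG-205 library (columns) over the mean CPM of the 3 DMSO libraries of its line. Red is higher and blue is lower with AG-205. The INSIG1 row runs from 2.92 to 3.43 in all 6 libraries, while SREBF2 runs from -0.10 in T-HESC replicate 1 to 1.84 in T-HESC replicate 3.

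T-HESC AG-205 replicate 1 thus had INSIG1 at a level near those of the other treated libraries with SREBF2 at the level of the controls. The known targets of SREBPs differed in the same library. Of 19 genes of cholesterol synthesis, 18 were above every DMSO library in replicate 1, as in replicates 2 and 3, with a median log2 ratio to the controls of 1.92 against 2.63 and 2.03. Of 10 genes of fatty acid synthesis, 6 were above every DMSO library in replicate 1 against 10 and 8, with median log2 ratios of 0.38 against 1.89 and 1.45. FASN, the fatty acid synthase, was at 246 CPM in replicate 1, within its control range of 236 to 319 CPM, and at 1378 and 1654 CPM in replicates 2 and 3. SCD, the stearoyl-CoA desaturase, was at 684 CPM in replicate 1, at 1684 and 1492 CPM in the others and at 169 to 200 CPM in the controls. In this library levels ran downward with GC content (Spearman rho -0.36 across genes against the other libraries of the group) and with length (rho -0.34), whereas in AG-205 replicate 3 rho with GC content was 0.58. GC content was 57.1% in SREBF2, 63.2% in SREBF1, 51.1% in MBTPS1, 44.8% in INSIG1, 36.3% in INSIG2 and 35.9% in MBTPS2. The part of this trend in the single-library values was not tested.

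Levels were compared between genes per kilobase of annotated exon. The order depended on the length used, and the values that follow use the union of all annotated exons. In HEC-1A with DMSO, SCAP stood first at 56.5 ± 1.8 CPM per kb (SD, n = 3), followed by SREBF2 at 47.1 ± 1.3, SREBF1 at 24.3 ± 0.40, MBTPS1 at 20.4 ± 0.53 and INSIG1 at 9.40 ± 0.45. INSIG2 at 4.52 ± 0.39 and MBTPS2 at 3.95 ± 0.29 came last and overlapped each other. With AG-205, INSIG1 had the highest mean at 87.8 ± 11.8 CPM per kb, its libraries overlapping those of SREBF2 at 84.9 ± 13.9, and SCAP followed at 51.4 ± 7.1. In T-HESC with DMSO, INSIG1 had the highest level at 32.3 ± 8.4 CPM per kb, above SREBF2, MBTPS1, SCAP and SREBF1, which lay between 16.4 and 19.0 with overlapping libraries. With AG-205 it reached 287 ± 41 CPM per kb, where SREBF2 was at 44.7 ± 25.4 and SCAP at 15.6 ± 4.7. With the longest transcript as length, SREBF2 at 120 ± 19.7 CPM per kb stood before INSIG1 at 110 ± 14.8 in HEC-1A with AG-205, again with overlapping libraries, and MBTPS1 at 43.6 ± 1.2 before INSIG1 at 40.6 ± 10.6 in T-HESC with DMSO, also overlapping. In HEC-1A with DMSO that length put MBTPS1 at 47.9 ± 1.2 above SREBF1 at 40.9 ± 0.68 and MBTPS2 at 7.93 ± 0.57 above INSIG2 at 5.01 ± 0.43. Under both lengths SCAP and then SREBF2 stood first in HEC-1A with DMSO, and INSIG1 in T-HESC with AG-205.

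Ratios within a library compare partner genes on the same length scale, here the union of exons, and their levels depend on it. With the longest transcript, mean INSIG1 over INSIG2 in HEC-1A with DMSO was 2.36 instead of 2.08. Mean SREBF2 over SREBF1 in that group was 1.63 instead of 1.94. INSIG1 was 2.09, 2.16 and 2.00 times INSIG2 with DMSO and 13.0, 15.2 and 10.8 times with AG-205 in HEC-1A. In T-HESC the ratio was 8.40, 6.57 and 6.39 with DMSO and 48.4, 64.1 and 77.7 with AG-205. The ranges of treated and control libraries were apart in both lines, with log2 changes of 2.62 and 3.14. Retention genes against the escort, that is INSIG1 plus INSIG2 over SCAP, stood at 0.240, 0.231 and 0.269 with DMSO and at 1.54, 2.08 and 1.96 with AG-205 in HEC-1A. In T-HESC they stood at 1.89, 2.57 and 1.63 with DMSO and at 26.4, 21.9 and 12.1 with AG-205. The log2 changes were 2.90 and 3.26, and the HEC-1A ratio with AG-205 overlapped the T-HESC ratio with DMSO.

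SREBF2 was 1.87, 1.93 and 2.01 times SREBF1 with DMSO and 3.33, 3.88 and 3.30 times with AG-205 in HEC-1A, a log2 change of 0.85 with the groups apart. In T-HESC the ratio was 0.944, 1.02 and 1.71 with DMSO and 1.61, 4.56 and 3.24 with AG-205, so that AG-205 replicate 1 fell below the highest control. That log2 change was 1.28 and was 1.70 without AG-205 replicate 1 as the highest value with a library left out. MBTPS1 over MBTPS2 overlapped between treatments in both lines, and its log2 change was -0.03 in the epithelial and -0.35 in the stromal line. In an exact permutation test of the 8 log2 changes, two-sided, the 5 with groups apart had p = 0.1, the smallest that 3 libraries against 3 allow (0.16 after Benjamini-Hochberg adjustment over the 8). All of these except SREBF2 over SREBF1 in HEC-1A contain INSIG1, so they mostly restate its own rise. SREBF2 over SREBF1 in T-HESC had an exact p of 0.2 (adjusted 0.267), and MBTPS1 over MBTPS2 had an exact p of 0.8 (adjusted 0.8) in HEC-1A and an exact p of 0.5 (adjusted 0.571) in T-HESC.

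**Figure D3:**
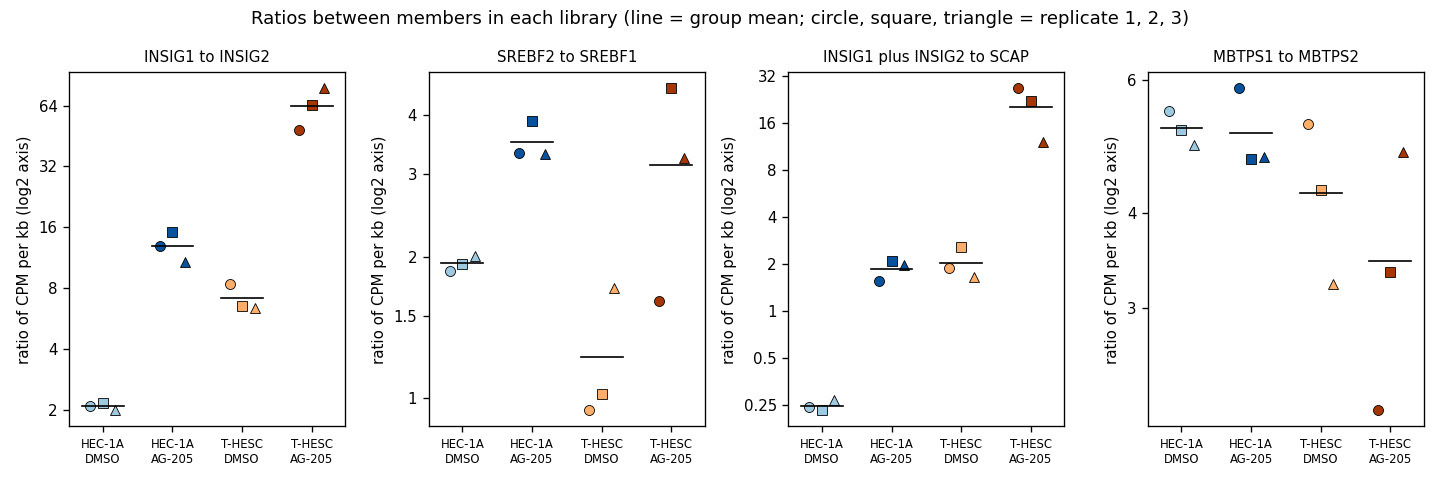
Ratios of CPM per kb between members in each of the 12 libraries (vertical log2 axes), by cell line and treatment, with the group mean as a line. INSIG1 over INSIG2 and INSIG1 plus INSIG2 over SCAP separate treated from control libraries in both lines, SREBF2 over SREBF1 in HEC-1A, and MBTPS1 over MBTPS2 in neither.

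The lines also differed in the members in the cultures given DMSO. There, INSIG1 was higher in T-HESC than in HEC-1A by 1.78 ± 0.21 on the log2 scale, or 3.44-fold (edgeR's quasi-likelihood test over 12 libraries, adjusted p = 1.02e-05). SCAP was lower in T-HESC, with a log2 difference of -1.64 ± 0.21 (adjusted p = 2.12e-05 in edgeR's quasi-likelihood test), or 3.12-fold higher in HEC-1A. SREBF2 was also lower in T-HESC, with a log2 difference of -1.31 ± 0.35 (adjusted p = 0.00640 in edgeR's quasi-likelihood test). These 3 of 7 members passed the test, against 58.9% of the 16132 genes tested, and were also past the fold limit, against 44.3%. The shares of all genes are of the same order as those of the members. SREBF1 had a log2 difference of -0.57 ± 0.27 (adjusted p = 0.0822), MBTPS1 -0.14 ± 0.21, MBTPS2 0.19 ± 0.17 and INSIG2 0.02 ± 0.25. SREBF1 passed in 7 of 22 alternatives: without T-HESC AG-205 replicate 1 (adjusted p = 0.0452) or replicate 3 (adjusted p = 0.0175), under upper-quartile scaling (0.0280), with no filter (0.0400), with quality weights (0.00411), with the GC content and length correction (0.00879) and in a fit of the DMSO libraries alone (0.0122). With the GC content and length correction INSIG2 was lower in T-HESC by a log2 difference of -0.43 (adjusted p = 0.0361). In bulk RNA, a lower level in a line can be less RNA of the gene per cell or a different share of other RNA, and these cannot be told apart.

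With AG-205 the same INSIG1 and SCAP differences were seen, 1.71 ± 0.21 and -1.72 ± 0.21 (edgeR's quasi-likelihood test, adjusted p = 1.32e-05 and 1.42e-05). SREBF2 at -0.93 ± 0.35 (adjusted p = 0.0354) and SREBF1 at -0.77 ± 0.27 (adjusted p = 0.0236) passed without the fold limit, so that 4 of 7 members passed, against 61.7% of genes, and 2 were past the fold limit, against 46.6%. SREBF1 missed the test without HEC-1A AG-205 replicate 1 (adjusted p = 0.0914), T-HESC AG-205 replicate 1 (adjusted p = 0.0566) or T-HESC AG-205 replicate 2 (adjusted p = 0.0800). SREBF2 missed it without HEC-1A AG-205 replicate 1 (adjusted p = 0.0985), HEC-1A AG-205 replicate 2 (adjusted p = 0.0849) or T-HESC AG-205 replicate 2 (adjusted p = 0.0568), and without T-HESC AG-205 replicate 1 its log2 difference was -0.54 (adjusted p = 0.0158). Without T-HESC AG-205 replicate 3 the differences of SREBF1 and SREBF2 were -1.17 and -1.36, both past the fold limit. In a fit of the AG-205 libraries alone neither SREBF1 (adjusted p = 0.0720) nor SREBF2 (adjusted p = 0.120) passed. There 2 of 7 members passed, against 7811 of 15201 genes. INSIG2 had a log2 difference of -0.52 (adjusted p = 0.0851), which passed at -0.72 without T-HESC AG-205 replicate 1 (adjusted p = 0.0187) and at -1.05 with the GC content and length correction (adjusted p = 0.000101). INSIG2 also passed under upper-quartile scaling, where 6 of 7 members and 10048 of 16132 genes passed. MBTPS1 at -0.31 passed only without T-HESC AG-205 replicate 3 (-0.55, adjusted p = 0.0250) and under upper-quartile scaling (-0.58, adjusted p = 0.0191). Upper-quartile scaling moved the median of all genes in the line differences by -0.16 with DMSO and -0.25 with AG-205, and no member that passed changed direction under it.

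The AG-205 effects themselves were compared between the lines in the same fit of 12 libraries. By edgeR's quasi-likelihood test 0 of 7 members differed, where 0.174% of the 16132 genes did. At an unadjusted p under 0.05 the count of members was also 0, against 1025 of the 16132 genes. DESeq2 called 0 members, against 86 of 34979 genes. The difference of log2 fold changes, T-HESC minus HEC-1A, was -0.07 ± 0.29 for INSIG1, 0.38 ± 0.49 for SREBF2 and -0.54 ± 0.35 for INSIG2. The approximate 95% interval was -0.63 to 0.49 for INSIG1 and -1.22 to 0.14 for INSIG2. Both use the normal distribution and are narrower than the test implies. That INSIG2 passed in HEC-1A and not in T-HESC is therefore not shown to be a difference between the lines.

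**Figure D4:**
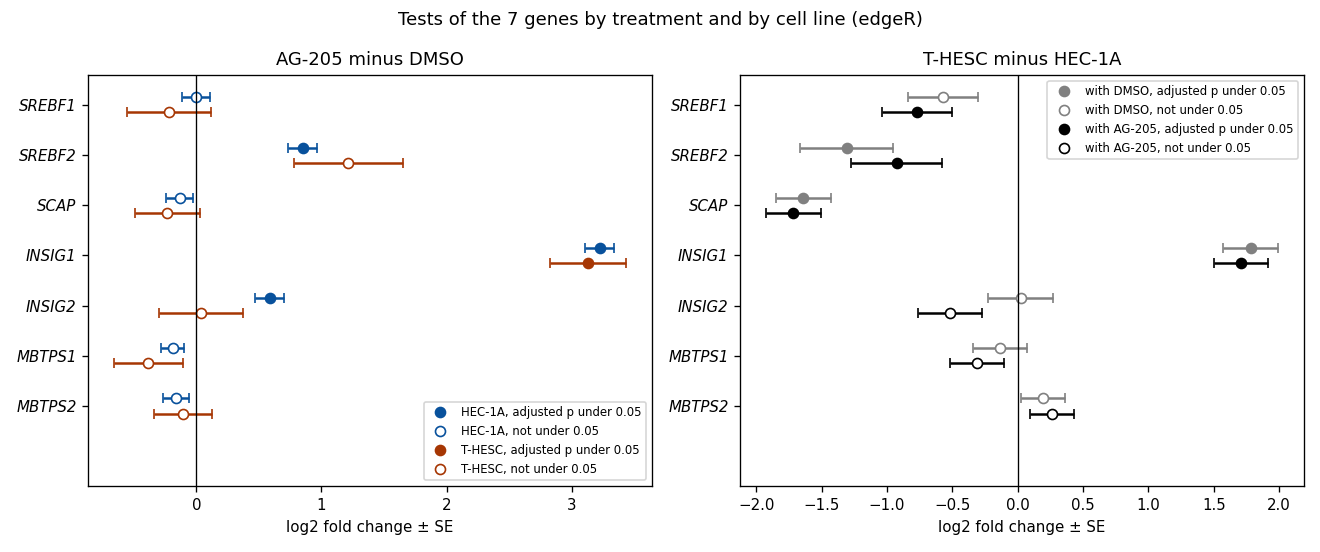
Log2 fold changes of the 7 members with their SE, for AG-205 minus DMSO in each line (left) and for T-HESC minus HEC-1A with each treatment (right). Filled points have an adjusted p under 0.05 in edgeR's quasi-likelihood test. INSIG1 is at 3.22 and 3.13 in the left panel, and SCAP is at -1.64 and -1.72 in the right panel.

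Likeness of pattern was described by Pearson's r over the 12 libraries, with the mean of each line removed from log2(CPM + 1), across 16131 other genes. The points share the treatment and the scaling of each library, so r is given without a p. The 5 genes most like INSIG1 were MVD, FDPS, MVK, FDFT1 and MSMO1, with r from 0.982 to 0.993, all of them enzymes of cholesterol synthesis. The 3 most like SREBF2 were FASN, VAT1 and PLEKHM1, with r from 0.975 to 0.976. The 3 most like SREBF1 were ZNF579, PNPLA2 and BCL3, with r from 0.976 to 0.982. Among the members, SCAP and MBTPS1 had r = 0.93, SREBF1 and SCAP r = 0.83 and INSIG1 and SREBF2 r = 0.71, while INSIG1 and SCAP had r = -0.44 and SREBF1 and SREBF2 r = 0.16.

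The genes that work beside the members were counted in the same way, and over all genes tested in HEC-1A 7.35% passed higher and 4.28% lower. In T-HESC 11 of 13753 genes passed. An unadjusted p under 0.05 was reached by 3693 of 14122 genes in HEC-1A and 740 of 13753 in T-HESC. In DESeq2 1488 of 30803 genes passed in HEC-1A and 119 of 29303 in T-HESC. Of 12 partners of SREBP maturation and vesicle transport, 1 passed the test in HEC-1A, higher, and 0 lower, a share near that of all genes, with a median log2 fold change of 0.11 against 0.01 over all genes. It was SEC24D, a coat subunit of vesicles leaving the endoplasmic reticulum, at 0.87 ± 0.13 (adjusted p = 0.00119), named after its value was seen. SPRING1, a cofactor of site-1 protease, was at 61.3 to 63.7 CPM with DMSO and 65.5 to 83.5 CPM with AG-205 in HEC-1A (log2 fold change 0.20 ± 0.11, adjusted p = 0.266, and 0.0355 without AG-205 replicate 3). In T-HESC it was at 50.0 to 72.3 and 68.7 to 94.9 CPM (0.49 ± 0.23, adjusted p = 0.977). In T-HESC 0 of the 12 passed edgeR's quasi-likelihood test, 0 had an unadjusted p under 0.05 and 0 passed in DESeq2.

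Of 10 genes of INSIG turnover, 1 rose and 3 fell in HEC-1A, where 7.35% of all genes passed higher and 4.28% lower. RNF145, a ubiquitin ligase of the endoplasmic reticulum, went from 88.6 to 95.7 CPM with DMSO to 191 to 230 CPM with AG-205, a log2 fold change of 1.16 ± 0.10 (edgeR's quasi-likelihood test, adjusted p = 9.27e-06). Among those that fell were ERLIN1 and ERLIN2, membrane proteins of the endoplasmic reticulum, which fell by 0.39 and 0.37 on the log2 scale and were named after their values were seen, and the number that fell was 0 without any 1 of the DMSO replicates 1, 2 and 3, and 2 and 1 when AG-205 replicates 1 and 2 were left out. In T-HESC 0 of the 10 passed edgeR's quasi-likelihood test, 1 had an unadjusted p under 0.05 and 1 passed in DESeq2, namely RNF145, whose AG-205 libraries at 199 to 213 CPM all lay above the controls at 108 to 124 CPM. Of 11 partners of nuclear SREBPs, 1 rose and 1 fell in HEC-1A. LPIN1, a phosphatidate phosphatase that also acts in the nucleus, rose by 2.16 ± 0.12 (edgeR's quasi-likelihood test, adjusted p = 1.53e-07), while KPNB1, the importin that carries SREBP-2, fell by 0.37 (adjusted p = 0.0164). The fall of KPNB1, which was named after its value was seen, was lost without DMSO replicate 1, 2 or 3 or AG-205 replicate 2. In T-HESC 0 of these 11 passed edgeR's quasi-likelihood test, and 1 did in DESeq2 and at an unadjusted p under 0.05, LPIN1 at 1.23. Of 8 other substrates of the site proteases, such as ATF6, the counts were high enough for a test of 6 (HEC-1A) or 7 (T-HESC), of which 0 passed edgeR's quasi-likelihood test or DESeq2 in either line, with 1 and 0 at an unadjusted p under 0.05.

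Most known targets of SREBPs passed the test in HEC-1A. Of 19 genes of cholesterol synthesis, 18 rose and 0 fell in HEC-1A, with a median log2 fold change of 2.00, PMVK being the exception at 0.04. TM7SF2, a sterol reductase, rose by 3.48 ± 0.11 (edgeR's quasi-likelihood test, adjusted p = 2.23e-09), and MVD, ACAT2 and HMGCS1, enzymes of the mevalonate pathway and of the step before it, rose by 2.94, 2.84 and 2.85. In T-HESC 8 of the 19 passed, all higher, with a median of 2.38, and HMGCS1 rose by 3.74 and MVD by 2.83. That count was 18 in DESeq2. In edgeR it was 17, 0 and 4 when AG-205 replicates 1, 2 and 3 were left out in turn, and 0 when any of the DMSO replicates 1, 2 and 3 was. HMGCS1 was lost in each of these except without AG-205 replicate 1, and MVD in each of them except without AG-205 replicates 1 or 3. Of 10 genes of fatty acid synthesis, 9 rose in HEC-1A, with SCD at 4.57 ± 0.14, ACSS2, an acetyl-CoA synthetase, at 3.77, ELOVL6, a fatty acid elongase, at 2.19 and FASN at 1.97 on the log2 scale. In T-HESC 0 of the 10 passed edgeR's quasi-likelihood test, 6 had an unadjusted p under 0.05 and 2 passed in DESeq2, and without AG-205 replicate 1 the count in edgeR was 5. Both sets of targets were known to move from earlier work on these libraries, so their counts are a background to the members and not independent evidence.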

How the data were processed

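RNA of 12 cultures was sequenced in read pairs after polyA selection. Per the methods of the study, reads passed through Trimmomatic 0.38, HISAT2 2.1.0 (genome GRCh38) and featureCounts of Subread 2.0.0 with an Ensembl annotation. The authors deposited the raw counts per gene, whole numbers without normalization, with 7168542 to 15178276 counts per library. The strand setting and the handling of multiply mapped reads are not given in the sources used here. Pairs of libraries within a group differed by a chi-square of 1.88 to 233 per degree of freedom, so none was a copy of another.

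Groups came from the sample titles. Genes were filtered with filterByExpr, scaled with TMM and tested with edgeR 4.0.16 in R 4.3.3 (quasi-likelihood test, Benjamini-Hochberg adjustment), within each line for AG-205 against DMSO and over all 12 libraries for the line differences and the difference of effects. SEs came from the F values. CPM were scaled over all 12 libraries, and levels per kb used the union of exons in GENCODE 44, whose coordinates are given. Ratios were tested by exact permutation in scipy, and correlations used a pseudocount of 1. Alternatives were DESeq2 1.42.0, RLE and upper-quartile scaling, no filter, a mean of at least 1 CPM, a replicate block, limma 3.58.1 quality weights, other sets of libraries in the fit, an adjusted p under 0.01, no fold limit, the longest transcript as gene length and leaving out each library. A correction for GC content and length (mgcv 1.9.3) was added after seeing the data.

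The named genes were the 7 members, genes whose exons overlap them or that lie within them, those most like INSIG1, SREBF1 and SREBF2 in pattern, from each list at most 4 called genes by smallest p in HEC-1A, with SPRING1, SCD and HMGCS1 in any case, and the markers. Outside this rule, SEC24D, ERLIN1, ERLIN2, KPNB1 and PMVK were named after their values were seen, and ATF6 as an example of its list. A gene of the INSIG turnover list, included in its counts, is not reported by name here. Members and lists were chosen with earlier results of these data known. The edgeR test was checked on simulated counts with 200 genes changed 4-fold. For HEC-1A it recovered 191 of 193 tested genes, with 1 false call. For T-HESC the recovery was 169 of 192, with 3 false calls. These figures describe the simulated counts only. Leaving out 1 real library made the T-HESC calls range from 0 to 72 genes. Windows before start sites came from RefSeq (GRCh38.p14), and all 7 members matched.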

Additional observations from a re-analysis of the deposited data

How the results depend on the processing

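Of 679 alternatives computed for 35 results of single members, 611 kept the direction and the side of the test. The 19 that lost the test and the 17 that gained it are given above where they concern the library left out. By setting, the number of genes called in HEC-1A (main count 393) was 1643 with no fold limit, with 3 members, and 141 in the fit of all 12 libraries. In T-HESC (11 genes) it was 0 at an adjusted p under 0.01, with 0 members, 115 in DESeq2, 181 with no filter and 333 with quality weights, both with 2 members, 25 with the GC content and length correction, added after seeing the data, and 160 in the fit of all 12 libraries. The difference of effects (28 genes) had 4 at an adjusted p under 0.01, 86 in DESeq2, 141 with no filter, 58 with the GC correction and 380 with quality weights. The line difference with AG-205 had 4 members called with no fold limit and 4 under upper-quartile scaling, against 2. Of 16132 genes, 9948, 7613 and 7518 were called in these settings. With 1 library left out, genes called ranged from 310 to 589 in HEC-1A, from 0 to 72 in T-HESC (members 0 to 2), from 4 to 80 for the difference of effects, from 6934 to 7479 for the line difference with DMSO and from 7128 to 8018 for that with AG-205 (members 2 to 4).

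Same-numbered libraries of a line did not deviate together, with correlations of -0.53 to 0.23, so numbers were not taken as pairs. Between differently numbered libraries the largest correlation was 0.69, of T-HESC AG-205 replicate 2 with DMSO replicate 3. Whether these shared an experiment is not given. With a replicate block the difference of effects had 0 genes called. For the line difference with AG-205, SREBF1 then missed edgeR's quasi-likelihood test (-0.92, adjusted p = 0.117), while SREBF2 passed the fold limit (-1.63, adjusted p = 0.0274). That made 3 members called there against 2, where 7121 of 16132 genes were called. No other member crossed the test or the fold limit with the block.

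The 32 changes of sign among single members concerned main values of at most 0.38 in size. SREBF1 in HEC-1A was 0.014 under upper-quartile scaling and 0.043 with quality weights, and -0.14 to 0.084 with 1 library left out. INSIG2 in T-HESC was -0.0027, -0.082 and -0.14 under upper-quartile scaling, GC correction and quality weights, and -0.18 to 0.31 with 1 library left out. MBTPS2 in T-HESC was 0.030 with quality weights and -0.25 to 0.058 with 1 library left out, and SREBF2-AS1 there was -0.00414 with quality weights. For the difference of effects, the GC correction gave 0.031 for SREBF1 and 0.15 for SCAP, and upper-quartile scaling gave -0.0035 for MBTPS2. With 1 library left out that difference ran from -0.054 to 0.76 for SREBF2, -0.33 to 0.11 for SCAP, -0.25 to 0.12 for INSIG1, -0.41 to 0.057 for MBTPS1 and -0.063 to 0.26 for MBTPS2. For the line difference with DMSO, INSIG2 was -0.14 under upper-quartile scaling, -0.0017 with a mean of at least 1 CPM, -0.43 with the GC correction and -0.24 to 0.15 with 1 library left out. MBTPS2 was -0.29 with DMSO and -0.27 with AG-205 under the GC correction. The cause was not tested. With 3 libraries a group, the median SE of log2 fold changes was 0.133 and 0.325 in HEC-1A and T-HESC, which limits what the T-HESC comparisons could detect.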
